A study of Bos taurus with 4 samples.

Results

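The genes described here encode the proteins of the cytosolic ribosome. They were chosen by name: a symbol that begins with RPL or RPS and a digit, or RPSA, with the S6 kinases (RPS6K) left out, and with the brightest probe standing for a gene that had several. The rule gave 57 genes, 29 of the large subunit (RPL) and 28 of the small subunit (RPS), of 7788 genes with a symbol on the array. The gene table used for names held 82 protein-coding symbols that meet the rule, 48 of the large and 34 of the small subunit, and RPSA was among those with no probe matched here. Expression was compared in the semitendinosus muscle of bulls of 15 months of age, of the beef breed Limousin (LIM) and of the dairy breed Holstein-Friesian (HF), which the study used as its control. No treatment is named in the labels. Each of 4 two-colour arrays held cRNA of 1 LIM bull in the red dye Cy5 and of 1 HF bull in the green dye Cy3.

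A ribosome consists of a large and a small subunit, each built from ribosomal RNA and many proteins. The small subunit reads the mRNA, and the large subunit joins the amino acids and releases the growing chain through its exit tunnel. The mRNAs of the ribosomal proteins are among the most abundant of a cell, and in animals their translation is regulated together through mTOR, a kinase that responds to nutrients and growth factors. In skeletal muscle the number of ribosomes is one of the factors that set how much protein can be made.

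In each of the 8 muscle RNAs every one of the 57 genes was detected well over background. Every ratio below is a log2 ratio of the LIM channel over the HF channel, as the dye labels give them, after loess normalization, which removes the trend of the ratio with brightness on each array. The signs of MSTN and FST, the genes of myostatin and its antagonist follistatin, and of the other genes checked by qPCR in the study were the opposite here of those in its text. The study's qPCR gave FST higher and MSTN lower in its beef breeds, LIM among them, and the other genes in its text's directions. By Western blot the study also reported less of the active myostatin protein in LIM than in HF. The dyes were never swapped, and LIM against HF cannot be told apart from Cy5 against Cy3. Were the channels the other way round from their labels, every sign and every higher or lower below would turn, and the sizes and tests would stay. All arrays lay on 1 slide, so no slide effect could be examined. The p-values are limma's, adjusted by the Benjamini-Hochberg method across the 15856 probes kept, and cover the spread between these 4 pairs of bulls. In whole muscle, fewer cells of a type and less RNA per cell cannot be told apart.

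By the dye labels, ribosomal protein mRNAs lay on the lower side in LIM muscle after loess, by a small amount. The mean ratio was below 0 in 51 of 57 genes (89.5%, against 45.7% of all probes kept), and its median over the genes was -0.25, with a range from -0.79 to 0.31, while the median over all genes kept was 0.003. The ratio was below 0 on all 4 arrays for 28 genes (49.1%, against 15.6% of all probes) and above 0 on all 4 for 1 gene, RPL13 (against 21.2%). In 23 genes, 10 of the large and 13 of the small subunit, every LIM bull lay below every HF bull in channel level (40.4%, against 7.35% of all probes). The reverse held for RPL13 alone, against 9.5% of all probes. Counted by gene, with 1 probe each as for the 57, 3153 of the 6376 genes kept had a mean below 0. On all 4 arrays 1112 of them were below 0 and 1193 above. These shares and medians describe the genes and carry no test of their own, because the genes were measured in the same bulls.

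Few single genes passed the test. Of the 57 genes, 2 were lower in LIM muscle at an adjusted p under 0.05 (3.51%, against 2.51% of all probes) and 0 were higher (against 2.96%), so the share of genes called was near that of the whole array. In simulated data with the spread of the kept probes, this test recovered 0% of 1.3-fold changes and 29.7% of 1.5-fold ones. The few calls therefore say little about changes as small as most of these. At an unadjusted p under 0.05, 27 were lower (47.4%, against 12.2%) and 1 was higher (against 15.1%). Of the 6376 genes kept, 930 were lower and 911 higher at that limit, and 201 and 177 at the adjusted one. A limit of 0.1 on the adjusted p, looked at after the values were seen, gave 17 lower genes (29.8%, against 6.54%) and 0 higher ones. By the methods' t-test, which also asks for a fold of 1.3, 8 were lower (against 4.17% of all probes) and 0 higher (against 5.16%), and after Benjamini-Hochberg adjustment 0 of them passed.

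**Figure D1:**
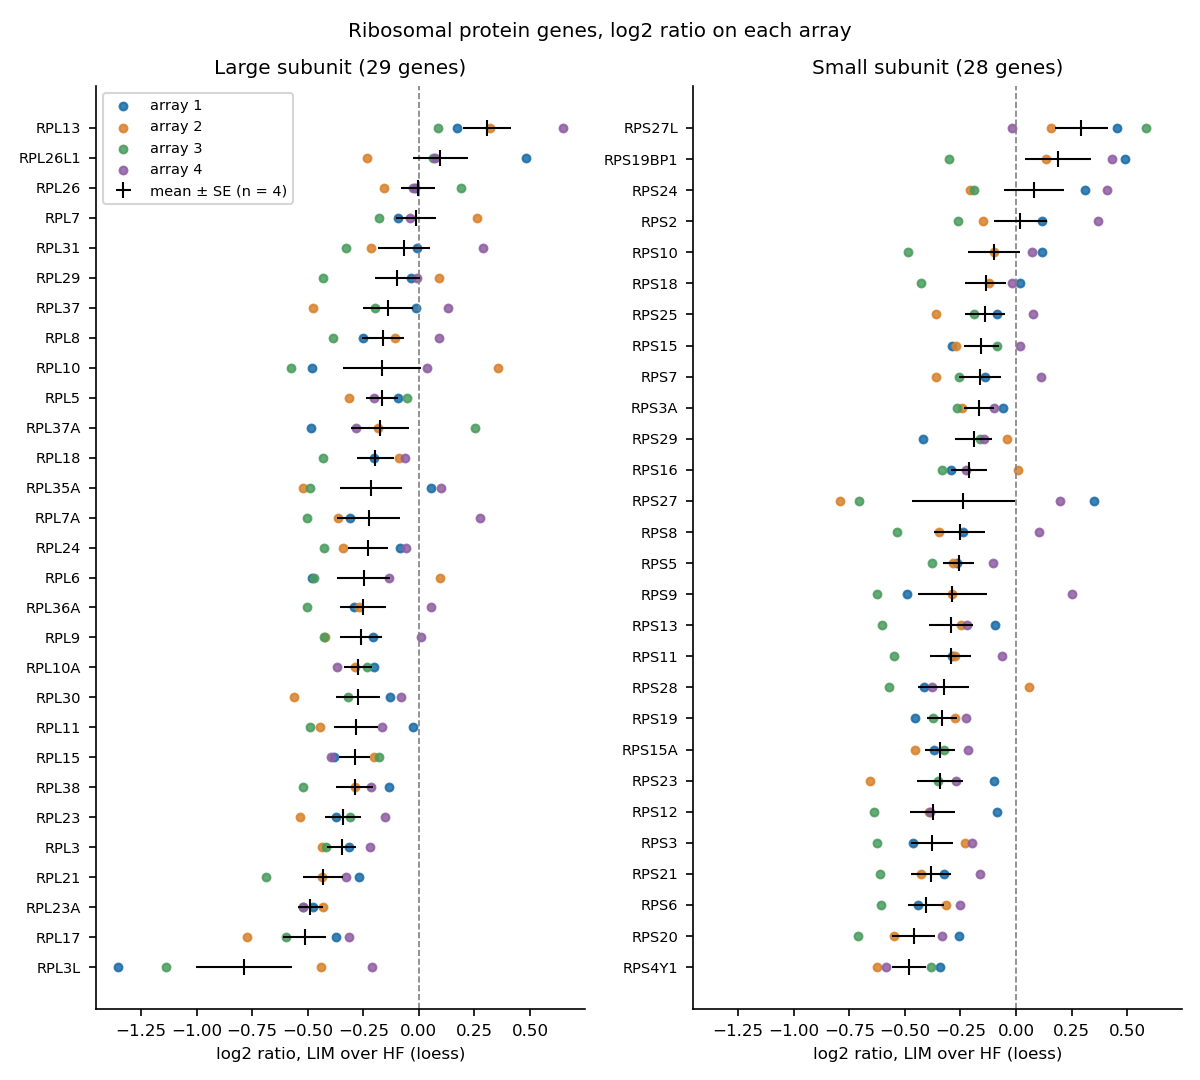
Log2 ratio of LIM over HF (x axis) for the 29 large and the 28 small subunit genes (y axis), with a point for each of 4 arrays, and the mean with its moderated standard error as a black cross. The means lie between -0.79 (RPL3L) and 0.31 (RPL13), and 51 of 57 lie to the left of 0.

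The first of the called genes was RPL23A, a protein at the mouth of the exit tunnel where the signal recognition particle docks. Its channel levels were 14.03, 13.81, 13.87 and 13.90 in the LIM bulls of arrays 1 to 4 and 14.50, 14.24, 14.39 and 14.42 in the HF bulls. All 4 LIM bulls lay below all 4 HF bulls, and the gap was nearly the same on every array, at -0.47, -0.43, -0.52 and -0.52. The mean of -0.49 ± 0.057 (SE, n = 4) is 1.40-fold lower in LIM (limma's adjusted p = 0.0253), and its SD between arrays, 0.043, was the smallest of the 57 genes.

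The second was RPS4Y1, a copy of the small subunit protein S4. Its levels were 12.75, 12.80, 12.72 and 12.73 in LIM and 13.09, 13.43, 13.10 and 13.31 in HF. The groups did not overlap, and the LIM bulls differed less among themselves (SD 0.037) than the HF bulls (SD 0.16). The mean ratio was -0.48 ± 0.077 (limma's adjusted p = 0.0394). With 1 array left out the means stayed between -0.477 and -0.507 for RPL23A and between -0.436 and -0.531 for RPS4Y1. Their adjusted p was then from 0.0663 to 0.102 and from 0.0719 to 0.137, in fits of 3 arrays that called 0 to 15 of all probes higher and 0 to 36 lower. The scanner software's processed signals gave -0.49 (adjusted p = 0.0651) and -0.511 (0.0662), and with median centring both means were above 0, at 0.19 and 0.18. Ribosomal protein genes have many near-identical copies, and whether other transcripts bind to these probes was not tested.

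Among the large subunit genes, 1 was lower, 28 did not pass the test, 27 had a mean below 0 and 14 were below 0 on every array. The median of the 4 genes around the exit tunnel (RPL17, RPL23A, RPL26 and RPL31) was -0.28, and they differed among themselves. RPL17 had ratios of -0.37, -0.77, -0.60 and -0.31 on arrays 1 to 4 and a mean of -0.51 ± 0.097, just outside the threshold (limma's adjusted p = 0.0504). RPL26 had a mean of -0.003 and RPL31 of -0.07, neither with 1 sign on all arrays. The genes of the tunnel thus ran from near 0 to about the lowest ratios of the subunit.

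The 3 genes of proteins that reach towards the catalytic centre had a median of -0.17. RPL3 was below 0 on every array (-0.32, -0.44, -0.42 and -0.22), with a mean of -0.35 ± 0.067 and limma's adjusted p of 0.0511. RPL10, the protein added late in the maturation of the subunit, went both ways (-0.48, 0.36, -0.58 and 0.04). RPL8 had a mean of -0.16. The partners of 5S ribosomal RNA, RPL5 and RPL11, which also bind the p53 regulator MDM2 when ribosome assembly fails, were below 0 on all 4 arrays, with means of -0.17 and -0.28, and neither passed.

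Of the 18 other large subunit genes, 17 had a mean below 0, with a median of -0.24. The lowest was RPL21, with ratios of -0.27, -0.43, -0.69 and -0.33 and a mean of -0.43 ± 0.089 (limma's adjusted p = 0.0592). RPL10A was among the steadiest between arrays, from -0.20 to -0.37, with a mean of -0.27 ± 0.061. RPL36A had a mean of -0.25, and RPL7 one of -0.01. RPL13 stood on the other side: its levels were 13.70, 13.69, 13.58 and 13.91 in LIM and 13.53, 13.38, 13.49 and 13.27 in HF. All LIM bulls were above all HF bulls, and the ratios were 0.17, 0.32, 0.09 and 0.65, with array 4 the highest. The mean of 0.31 ± 0.11 did not pass the test after loess (limma's adjusted p = 0.153) and did with median centring (0.97, adjusted p = 0.0343).

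Among the small subunit genes, 1 was lower, 27 did not pass, 24 had a mean below 0 and 14 were below 0 on every array. All 12 genes of the head, the part that swivels as tRNAs and mRNA move, had a mean below 0, with a median of -0.23. RPS20 was the lowest of them, with -0.25, -0.55, -0.71 and -0.33 on the 4 arrays and a mean of -0.46 ± 0.096 (limma's adjusted p = 0.0596). RPS3, which lines the entry of the mRNA channel, followed with a mean of -0.38 ± 0.094. RPS12, which the study lists among its differentially expressed genes, had a mean of -0.38 ± 0.10 and did not pass (limma's adjusted p = 0.0949). RPS10 had the mean nearest to 0 in the head, -0.10, and was above 0 on arrays 1 and 4.

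The 13 genes of the body and platform had a median of -0.29, and 11 had a mean below 0. RPS6, the protein phosphorylated by the S6 kinases, had levels of 14.69, 14.88, 14.60 and 14.88 in LIM and 15.13, 15.20, 15.21 and 15.13 in HF. All LIM bulls were below all HF bulls, and the HF bulls lay close together (SD 0.044, against 0.14 in LIM). The mean ratio of RPS6 was -0.40 ± 0.081 (limma's adjusted p = 0.055). RPS21 had a mean of -0.38 ± 0.090, with every array below 0. RPS24 (0.31, -0.21, -0.19 and 0.41) and RPS2 (0.12, -0.15, -0.26 and 0.37) were above 0 on arrays 1 and 4 and below 0 on arrays 2 and 3, and had means of 0.08 and 0.02. RPS27 was likewise above 0 on arrays 1 and 4 and below 0 on arrays 2 and 3, from -0.79 to 0.35, and had the largest SD between arrays of the 57 genes, 0.59. Its probe was matched through a non-coding transcript of the gene.

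RPL3L, the paralogue of RPL3 made mainly in skeletal and heart muscle, had the lowest mean of the 57 genes. Its levels were 13.01, 13.36, 13.16 and 13.58 in the LIM bulls and 14.37, 13.80, 14.30 and 13.79 in the HF bulls. The groups did not overlap, but the gap was wide on arrays 1 and 3, whose HF bulls were the higher ones, and narrow on arrays 2 and 4. The ratios were -1.36, -0.44, -1.14 and -0.21, and the mean of -0.79 ± 0.21, 1.73-fold lower in LIM, did not pass the test (limma's adjusted p = 0.0954). It did in a fit of the channels without pairing the bulls of an array (adjusted p = 0.0273). With median centring RPL3L was the 1 member with a mean below 0 (-0.12), from -1.48 on array 1 to 0.50 on array 4. Set against RPL3 on the same array, RPL3L was lower by a log2 ratio of -1.04 on array 1 and -0.72 on array 3, and within 0.02 of it on arrays 2 and 4 (-0.003 and 0.01). On median centring these differences were -1.13 and -0.56 on arrays 1 and 3, and 0.06 and 0.02 on arrays 2 and 4.

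The genes of slow muscle fibres varied between arrays too. MYH7, the slow myosin heavy chain, had ratios of -2.16, -0.37, -1.24 and -0.45, and TNNT1, the slow troponin T, had -2.54, -0.48, -0.62 and 0.15. RPL3L, MYH7 and TNNT1 shared array 1 as the lowest and array 3 as the next. The fast myosin gene MYH2 was also lowest on arrays 3 and 1 (-0.74, -0.06, -1.54 and 0.29 on arrays 1 to 4). MYH1, another fast myosin gene, was not (0.09, -0.25, -0.26 and 0.25). The muscle fibre marker ACTA1 was highest on arrays 3 and 1 (0.66, -0.27, 1.91 and -0.09). Neither slow fibre gene passed the test (limma's adjusted p = 0.116 and 0.276), and the part of fibre type in the ratio of RPL3L was not tested.

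Of the other paralogues RPS4Y1 was among the lowest small subunit genes, as given above, and the means of RPS27L and RPL26L1 were above 0. RPS27L, a paralogue of RPS27 that p53 can induce, had levels of 12.94, 13.10, 12.92 and 12.94 in LIM and of 12.49, 12.94, 12.34 and 12.96 in HF. The LIM bulls were alike (SD 0.082), and the HF bulls of arrays 1 and 3 were low. The ratios were 0.46, 0.16, 0.58 and -0.02 with a mean of 0.29 ± 0.12 (limma's adjusted p = 0.186). RPL26L1, the paralogue of RPL26, ranged from -0.23 to 0.48 with a mean of 0.10. RPS19BP1, which meets the rule by its symbol and encodes a protein that binds RPS19 rather than a standard part of the mature ribosome, ranged from -0.30 to 0.49 with a mean of 0.19. Without RPS19BP1 and the 4 paralogues (RPL3L, RPL26L1, RPS27L and RPS4Y1) the median over the 52 remaining genes was -0.25 and 1 was lower.

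**Figure D2:**
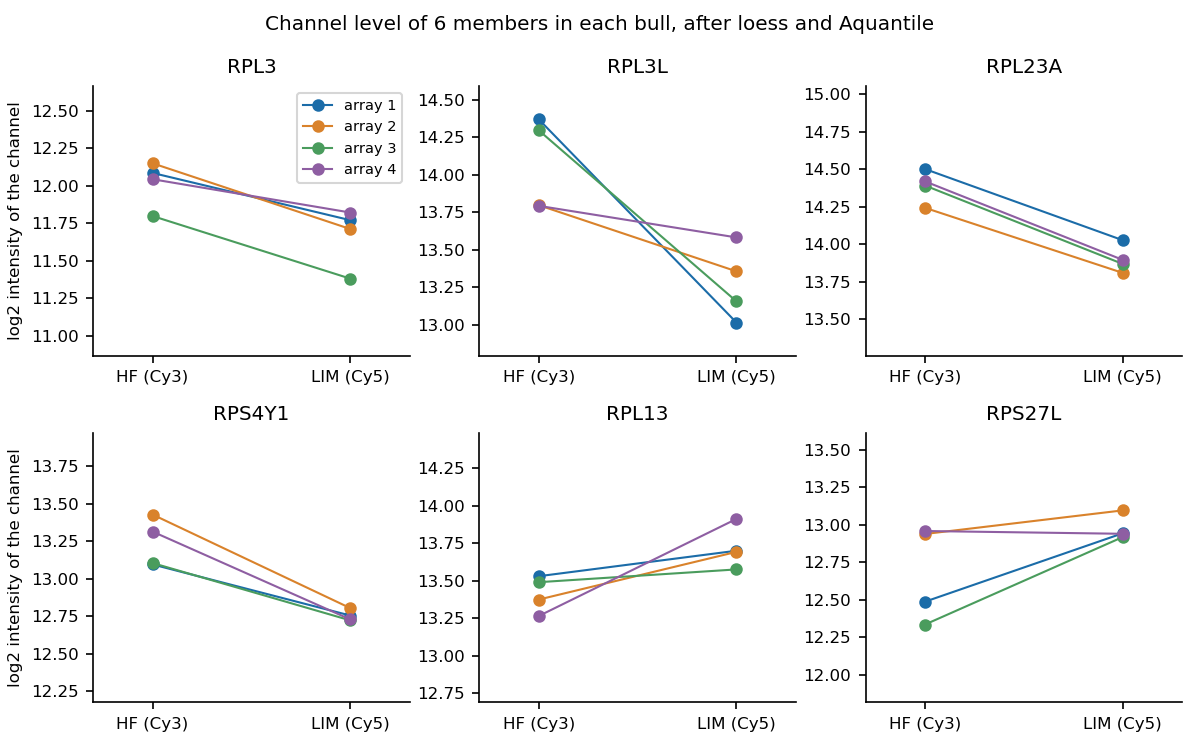
Log2 intensity of the HF (Cy3) and the LIM (Cy5) channel after loess and Aquantile for 6 genes, with a line joining the 2 bulls of each of 4 arrays and y axes of equal span. The lines of RPL23A run in parallel (SD of the ratio 0.043), those of RPL3L fall steeply on arrays 1 and 3 (-1.36 and -1.14) and less on arrays 2 and 4, and RPL13 rises on all 4 arrays.

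The subunits lay side by side. On arrays 1 to 4 the median ratio was -0.20, -0.29, -0.43 and -0.06 over the large subunit genes and -0.25, -0.27, -0.38 and -0.10 over the small subunit genes. Array 3 was the lowest and array 4 the nearest to 0 in both. The large less the small subunit median was 0.043, -0.011, -0.046 and 0.039 on the 4 arrays, above 0 on arrays 1 and 4 and below 0 on arrays 2 and 3, with a mean of 0.006 ± 0.043 (SD, n = 4). The difference between subunits was thus within the spread between arrays, while the array medians of all 57 genes ranged from -0.42 to -0.08. With median centring the difference ranged from -0.082 to 0.097, and on the processed signals from -0.023 to 0.066.

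The sign of the whole group depended on how the arrays were normalized. Before any normalization the Cy5 channel was brighter, with array medians of 1.14, 0.67, 0.93 and 0.73. When each array was only centred on its median, the median over the 57 genes was -0.38 on array 1 and 0.60, 0.89 and 0.63 on arrays 2 to 4. The median of the gene means was then 0.42 where after loess it was -0.25, beside 0.35 over all genes kept. With median centring 5 of 57 genes were higher (8.77%, against 22.2% of all probes) and 0 were lower (against 1.73%). The 5 were RPL13, RPS27L (0.95), RPS19BP1 (0.80), RPS24 (0.78) and RPL26L1 (0.65). A mean above 0 was found for 56 of 57 genes, against 67.1% of all probes. Of the 57, 51 lay above 0 on arrays 2 to 4 and below 0 on array 1 (89.5%, against 24.3%), and 5 lay above 0 on all 4 arrays (against 33.8%). When arrays were centred on the kept probes, the median was 0.17.

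The difference between the normalizations was largest at the bright end, where most of these genes lie. The correction that loess took off their ratios, relative to the array median, had a median of -0.18, 0.91, 1.34 and 0.73 on arrays 1 to 4, against -0.0005, 0.42, 0.54 and 0.41 over all probes kept. It was close to the same for both subunits, for example 1.34 for the large and 1.36 for the small on array 3. The mean log2 intensity ran from 8.41 to 16.33 over the 57 genes with a median of 15.01, while the median over all probes kept was 7.94, and 42 of the 57 lay over 14, a range that held 320 of the 15856 probes. The 15 genes under 14 had a median ratio of -0.25 and the 42 over it of -0.24. Across the 57 genes, which are not independent replicates, the mean ratios under loess and under median centring had a Pearson r of 0.96. The 2 sets of ratios were thus close to linearly related, while the level moved. Single genes could still change place: RPL7 lay well above the group median after loess (-0.01) and near it with median centring (0.41).

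The genes were also set against other bright probes, matched only by lying over the same limit of 14. Loess and median centring each take nearly the same amount off probes of like brightness. The gap between such sets could therefore hardly move, and its steadiness is no check of the normalization. The 277 probes over 14 that were not assigned to the 57 genes had a median of 0.02 after loess and of 0.72 with median centring, against -0.24 and 0.46 for the 42 ribosomal protein genes. The genes lay below these probes by -0.26 with loess, -0.25 with median centring and -0.26 on the processed signals. Array by array the gap was -0.30, -0.31, -0.51 and -0.10 with loess, and -0.28, -0.31, -0.48 and -0.10 with median centring. It was below 0 on all 4 arrays, and the settings do not count as separate evidence of that. Of the 277 probes 165 had a symbol, so some of the rest may belong to ribosomal proteins too, and the gap carries no test. With the genes' own probes left out of the curve, a fit added after seeing the data, their median was -0.28, and 4 were lower (against 2.54% of all probes) and 0 higher (against 2.93%).

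**Figure D3:**
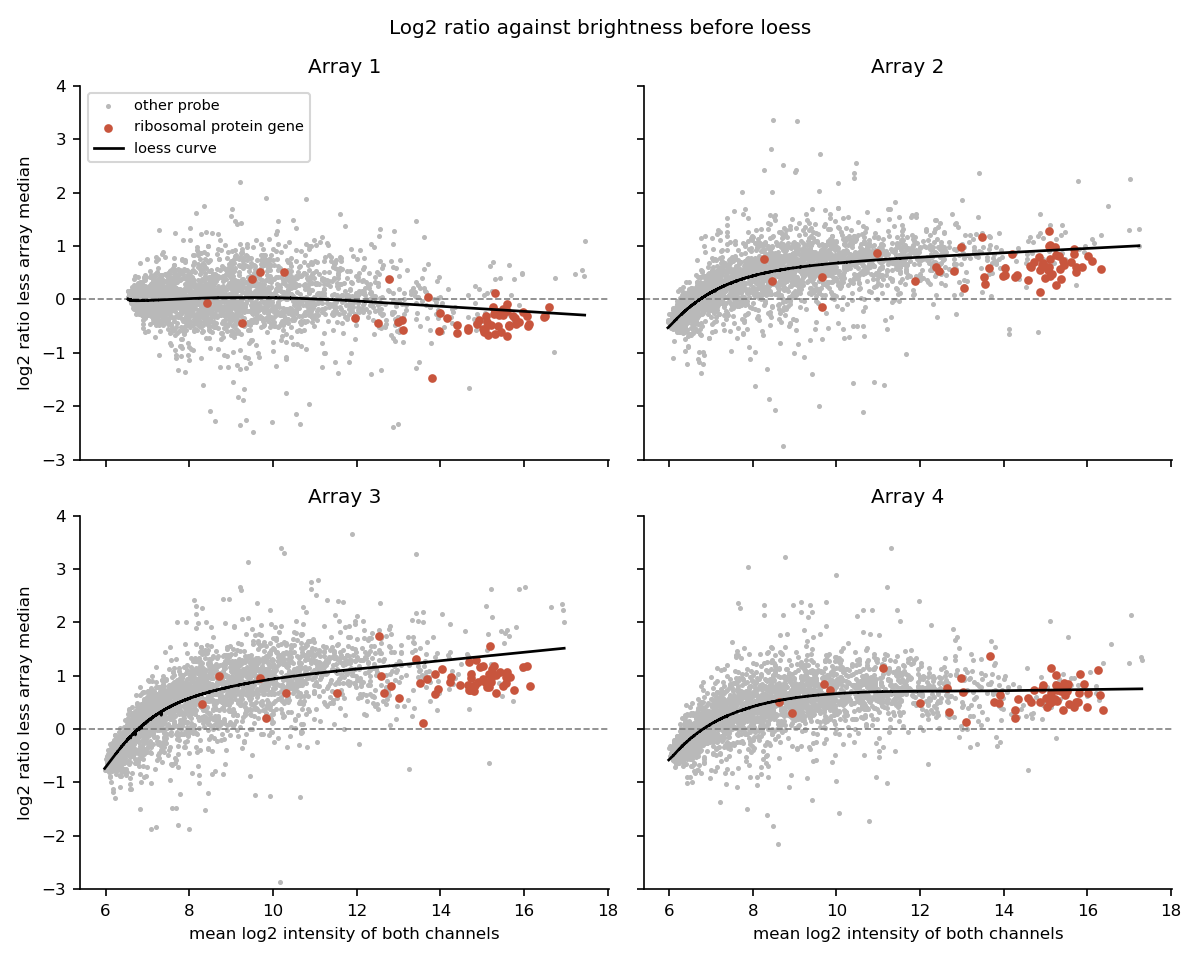
Log2 ratio of LIM over HF less the array median (y axis) against the mean log2 intensity of both channels (x axis) before loess, for the 57 ribosomal protein genes (red) and a random draw of other kept probes (grey), with the loess curve in black, 1 panel per array. Most red points lie at the bright end and under the curve on all 4 arrays, and the curve there stands far above 0 on arrays 2, 3 and 4 and below 0 on array 1.

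**Figure D4:**
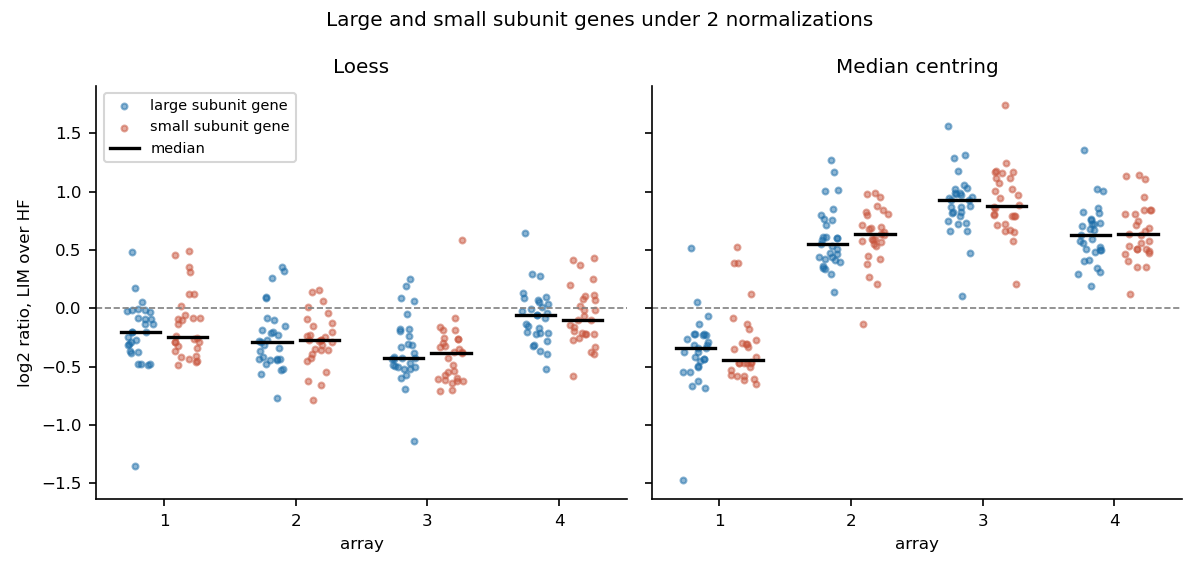
Log2 ratio of LIM over HF (y axis) of the large (blue) and small (red) subunit genes on each of 4 arrays (x axis), after loess on the left and median centring on the right, with the median of each subunit as a black line. The subunit medians lie side by side in every array, between -0.43 and -0.06 after loess, and on both sides of 0 with median centring.

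The spread between bulls of a breed was near that of all genes in LIM and below it in HF. The SD of the channel level over 4 bulls had a median of 0.15 in LIM and 0.13 in HF over the 57 genes, and the HF bulls had the larger SD in 28 of 57. Over all genes kept these medians were 0.14 and 0.18, and the HF bulls had the larger SD in 4306 of 6376 genes. The median SD of the ratio between arrays was 0.21 for the ribosomal protein genes and 0.21 for all genes. The median channel level over the 57 genes was 14.91, 14.82, 14.75 and 14.99 in the LIM bulls and 15.13, 15.09, 15.21 and 15.09 in the HF bulls. The groups did not overlap in this median after loess and Aquantile.

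Related genes were described from lists of their functions. After loess, ribosome parts whose symbols fall outside the rule had the nearest median, -0.24 over 4 of 6 listed genes, and 0 passed the test. Among them RPLP2, of the stalk that recruits elongation factors, had a mean of -0.25 ± 0.095. With median centring the median of these parts was 0.48, beside 0.42 for the ribosomal proteins and 0.43 for factors that build ribosomes. Which lists stood apart thus depended on the normalization. The 53 mitochondrial ribosomal proteins, which serve the separate ribosome of that organelle, had a median of -0.03, with 2 lower and 0 higher, where 2.51% and 2.96% of all probes were. The lower ones were MRPL52 (-0.55, limma's adjusted p = 0.0386) and MRPS24 (-0.50, adjusted p = 0.0434).

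Of 39 measured factors that build ribosomes, 3 were higher (against 2.96% of all probes), 2 were lower (against 2.51%) and 34 did not pass, with a median of -0.04. The higher ones were NOP16 (0.57), NOC2L (0.55) and RRP12 (0.40), all nucleolar factors, and the lower ones were LYAR (-0.49) and RRS1 (-0.38). In RNA polymerase I, which makes ribosomal RNA, 0 of 8 genes passed and the median was -0.01. The 7 elongation genes, with 0 passing, had a median of 0.08, and the 6 S6 kinases, also with 0 passing, had one of -0.06.

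Of 9 genes that control the translation of ribosomal protein mRNAs, 1 was higher and 2 were lower, with a median of 0.09. Over all probes the shares were 2.96% and 2.51%, as above. This list, like the others, was drawn up with earlier results of these data known, so its counts do not measure an excess. LARP4, a binding protein of mRNA poly(A) tails, was higher (0.78 ± 0.066, limma's adjusted p = 0.0187). DDIT4, an inhibitor of mTOR complex 1, was lower (-1.88 ± 0.21, adjusted p = 0.0239), as was EIF4A1, the RNA helicase of initiation (-0.71 ± 0.13, adjusted p = 0.0456). Of 8 partners of the ribosome and the nascent chain 1 was higher, ABCE1, the factor that splits ribosomes for reuse (0.62 ± 0.096, adjusted p = 0.0368), with a list median of 0.03. With median centring DDIT4 (-1.21) and RRS1 (-0.42) were still lower. EIF4A1 (-0.11, adjusted p = 0.734) and MRPL52 (-0.04, adjusted p = 0.795) no longer passed, and the means of MRPS24 and LYAR turned to 0.10 and 0.02.

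**Figure D5:**
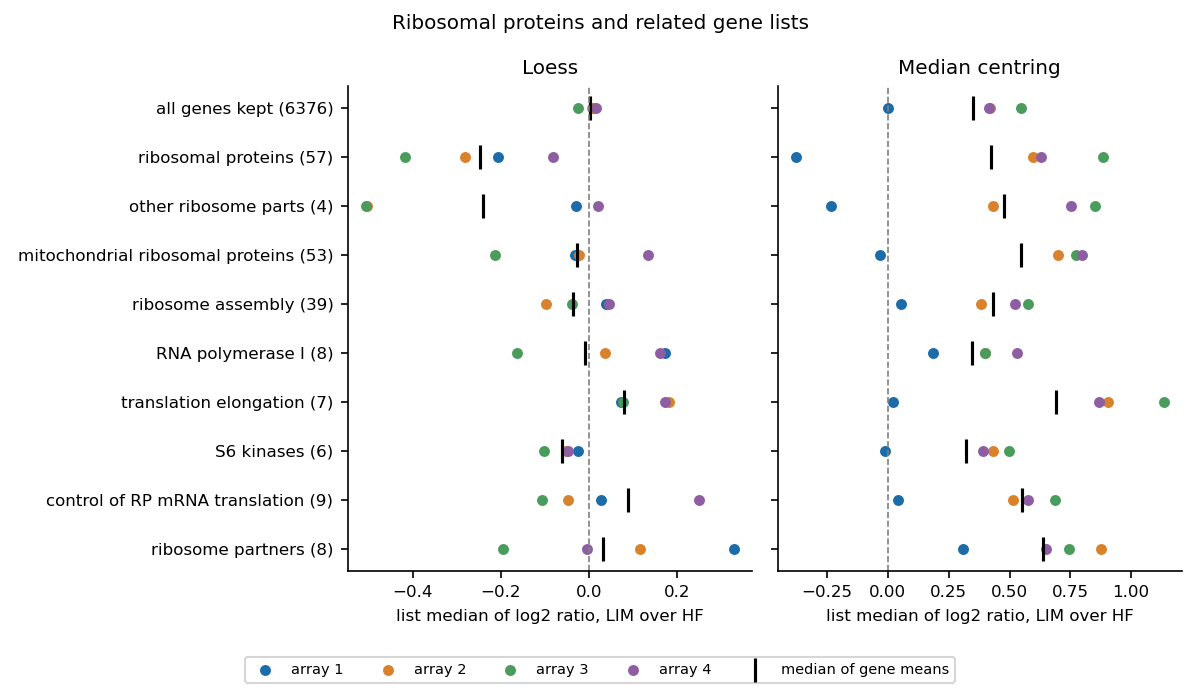
Median log2 ratio of LIM over HF (x axis) of the ribosomal proteins, of 8 related lists and of all genes kept (y axis, with the number of genes measured), as a point for each of 4 arrays and a black line for the median of the gene means, after loess on the left and median centring on the right. After loess the ribosomal proteins (-0.25) and the other ribosome parts (-0.24) lie left of the remaining lists, which lie between -0.06 and 0.09. With median centring they (0.42 and 0.48) lie among the remaining lists, which run from 0.32 (S6 kinases) to 0.69 (translation elongation).

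Markers of other cells were measured beside these genes, because their share in a muscle sample can differ. All 7 muscle fibre markers on the array were above background, and their summed log2 level was 19.4 to 19.5 in the LIM and 19.2 to 19.7 in the HF bulls. Single fibre genes went different ways within that sum: MB, which encodes the oxygen store myoglobin, was higher in LIM on all 4 arrays (0.73, 1.26, 0.71 and 1.39, mean 1.02 ± 0.15, limma's adjusted p = 0.0326, and 1.76 with median centring, adjusted p = 0.0181), while the means of MYH7 and TNNT1 were -1.06 and -0.87 and did not pass. The other 4 fibre markers did not pass either. The 5 of 10 leukocyte markers on the array had a median ratio of -0.16, -0.11, -1.02 and -0.56 on arrays 1 to 4, with summed levels of 10.9 to 11.2 in LIM and 11.3 to 11.8 in HF. The 4 of 7 macrophage markers had medians of 0.13, -0.29, -0.91 and -0.91. Their summed levels overlapped, at 10.6 to 11.7 in LIM and 11.4 to 13.0 in HF. No leukocyte or macrophage marker passed the test. On the same arrays the median over the 57 ribosomal protein genes was -0.21, -0.28, -0.42 and -0.08. The 6 fibroblast markers had a median of 0.33, and 0 passed, with summed levels of 14.2 to 14.9 in LIM and 13.6 to 14.6 in HF. They did not move together: their means ran from -0.27 to 1.29, with 2 below 0 and 4 above. The means of the leukocyte markers ran from -0.61 to 0.02, and those of the macrophage markers from -0.83 to -0.17. The endothelial, erythrocyte and adipocyte markers had medians of -0.13, -0.09 and 0.34 over 2, 3 and 2 genes measured, and 0 passed. The part of these cells in the ribosomal protein ratios was not tested.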

How the data were processed

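Muscle RNA was measured on 4 Agilent two-colour bovine arrays, 1 LIM bull in Cy5 against 1 HF bull in Cy3 on each, and samples were grouped by the labels. Per the file headers, the authors quantified the spots with Feature Extraction 10.7.3.1. The deposited intensity values are median foreground and background brightness per spot, not normalized. The deposited log10 ratios are of processed, dye-normalized signals, and the series table held the same values (largest difference 0). No read depth applies to arrays, and their number limits the precision.

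Background was corrected with normexp (offset 50) and ratios with loess (span 0.3, controls at weight 0) in limma 3.58.1 under R 4.3.3. Outlier spots (6 to 10 per array) were left out and no spot was saturated. Spots were averaged to 21475 probes. The 15856 kept were well above background in more than 0.5 of their spots in one channel, the same one, on 3 or more arrays. Mean ratios were tested against 0 with lmFit and eBayes, a fit tested on simulated data. Channel levels are after loess and Aquantile. Symbols came from RefSeq accessions in a table of ARS-UCD2.0, used for names only, since the array refers to another build. For 2 members with several probes, RPL15 and RPS3A, the means of all probes had the same sign. The dimmest RPL15 probe, not the one used for the gene, was above 0 on array 3 (0.85) and below 0 on the other arrays.

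Members and lists were chosen with earlier results of these data known. Named genes were those past the test, the extremes of each subunit, the largest and smallest SDs, paralogues and RPS6, and list genes past the test or of smallest p. DDIT4 and other lists' genes follow this rule. TNNT1, MYH1, MYH2, ACTA1 and RPS12 were named after their values were seen. The values of 1 gene of a related list are not reported here.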

Additional observations from a re-analysis of the deposited data

How the results depend on the processing

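The main results rest on 4 arrays and on loess. The median over the 57 genes and over each subunit stayed below 0 under every alternative tried that kept loess or used the dye-normalized processed signals, and turned with the 3 that did not. With median centring it was 0.422 for all genes and for the large and 0.437 for the small subunit (large less small -0.0148), with 5 genes higher and 0 lower, and 3525 of all probes were higher. With centring on the kept probes these medians were 0.166, 0.166 and 0.181 (difference -0.0148), 4 genes were higher and 0 lower, and 2595 of all probes were higher and 2891 lower. With no normalization they were 1.29, 1.29 and 1.31 (difference -0.0148), all 57 genes were higher and 0 lower, and 15497 of all probes were higher and 35 lower. The count of 2 lower genes became 1 with a normexp offset of 0, 0 with plain background subtraction, 0 with the processed signals and 0 with the series table, 6 with array weights, 8 with the methods' t-test, and 4 with the genes' probes left out of the loess curve, which was added after seeing the data. The arrays pair the bulls, and in the fit of unpaired channels (no replicate block) it was 1, RPL3L, with RPL23A and RPS4Y1 at adjusted p of 0.0961 and 0.0596. Leaving out 1 array gave 0 lower genes each time (0 to 0), with 0 to 15 of all probes higher and 0 to 36 lower. Of all probes, 811 were higher with the processed signals and with the series table, 735 with an intensity trend and robust prior, and 818 higher and 661 lower with the methods' t-test.

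Single genes changed sign as follows. With median centring the means were RPL10 0.537, RPL10A 0.406, RPL17 0.183, RPL21 0.286, RPL23A 0.189, RPL26 0.702, RPL3 0.287, RPL31 0.642, RPL36A 0.396, RPL7 0.413, RPS10 0.607, RPS20 0.246, RPS21 0.296, RPS27 0.325, RPS3 0.317, RPS4Y1 0.176 and RPS6 0.294. With centring on the kept probes they were RPL10 0.281, RPL10A 0.15, RPL21 0.0301, RPL26 0.446, RPL3 0.0318, RPL31 0.386, RPL36A 0.141, RPL7 0.158, RPS10 0.352, RPS21 0.0403, RPS27 0.0695, RPS3 0.0618 and RPS6 0.039. With no normalization they were RPL10 1.41, RPL10A 1.27, RPL17 1.05, RPL21 1.15, RPL23A 1.06, RPL26 1.57, RPL3 1.16, RPL31 1.51, RPL36A 1.27, RPL3L 0.753, RPL7 1.28, RPS10 1.48, RPS20 1.12, RPS21 1.16, RPS27 1.19, RPS3 1.19, RPS4Y1 1.05 and RPS6 1.16. Genes near 0 turned elsewhere: RPL7 at 0.0225 with array weights, RPL26 at 0.0121 with a loess span of 0.1, and RPS2 at -0.0159 with plain subtraction, -0.0121 with the processed signals and the series table, and -0.033 with the genes' probes left out of the curve. With 1 array left out, the ratio ranged from -0.0664 to 0.0483 for RPL26, from -0.0327 to 0.206 for RPL26L1, from -0.184 to 0.0223 for RPL31, from -0.103 to 0.0427 for RPL7, from -0.17 to 0.0314 for RPS10, from -0.0974 to 0.112 for RPS2 and from -0.0273 to 0.178 for RPS24. The cause was not tested.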
